A study of Mus musculus with 10 samples.

Results

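Astrocyte genes were followed through prenatal development of the mouse neocortex by counting ribosome-protected mRNA fragments (RPFs, or footprints). The 10 genes were taken by symbol, as a marker list of the astrocyte: Slc1a2, Slc1a3, Glul, Aqp4, Gja1, Apoe, Clu, Sparcl1, Mt3 and Ndrg2. All 10 were found among the 22373 genes of the count table, and all 10 were among the 13484 that passed a filter of at least 32 footprints in any stage, summed over its 2 libraries. Ribo-seq libraries were made at E12.5, E14, E15.5 and E17 and at P0, the day of birth, with 2 libraries at each of the 5 stages. Tissue came from wild-type CD-1 mice of both sexes with no treatment, and lysates were digested with RNase T1 and RNase A. Each library was made from a pool of brains, so a replicate is a pool and not an animal.

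Astrocytes are the glia that clear glutamate and potassium from the space around synapses, couple through gap junctions, supply lipids and metabolites to neurons, and wrap blood vessels with their endfeet. In the neocortex they arise from radial glia, the neural stem cells, after most neurons have been born, and they mature postnatally. Many genes used to mark them are already active in radial glia, and some also in the choroid plexus, the meninges or blood vessels. In bulk tissue, fewer cells of a type and less RNA per cell cannot be told apart, and a footprint count depends on how much of an mRNA there is and on how densely ribosomes occupy it.

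The libraries held between 7544404 and 36129988 counts, the smallest being P0 replicate 1. Over 4559 well covered genes, the SD of the log2 ratio between the replicates of a stage was 0.13 to 0.22 in the embryo and 0.53 at P0. Markers of neurons were present in every library, with 8 of 8 tested and a summed level of 2205 to 8916 CPM (counts relative to the library size, which was scaled by TMM factors). The E12.5 and E14 libraries also held markers of the choroid plexus, the epithelium that makes cerebrospinal fluid. The 10 listed markers summed to 285 and 345 CPM at E12.5 and to 1158 and 1164 CPM at E14, against 6.22 to 15.4 CPM in the 6 later libraries. CPM values are not corrected for the length of the coding sequence, so they are compared between stages and not between genes.

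Across the whole course, from E12.5 to P0, 8 of the 10 astrocyte genes rose, 1 fell and 1 was not called (limma-voom, adjusted p under 0.05 and at least 1.25-fold). Over all genes tested, 62.1% were called in this comparison, 30.1% higher and 32% lower at P0. Aqp4 passed the filter through P0 alone, the stage where it is high, and without it 7 of 9 rose. The median log2 fold change of those 9 was 0.90, against -0.013 over all genes. Their rises ran from 0.67 on the log2 scale for Slc1a3 to 1.44 for Sparcl1, and the fall was that of Gja1, by 4.25. The order of the stages differed between the genes. The mean level was lowest at E15.5 in 5 of them (Slc1a2, Slc1a3, Apoe, Sparcl1 and Aqp4), and it was highest at P0 in 6. The E15.5 libraries of Sparcl1 overlapped those of E14, and Aqp4 had 4 footprints in all at E15.5. For Clu, highest at P0, the libraries overlapped those of E14.

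**Figure D1:**
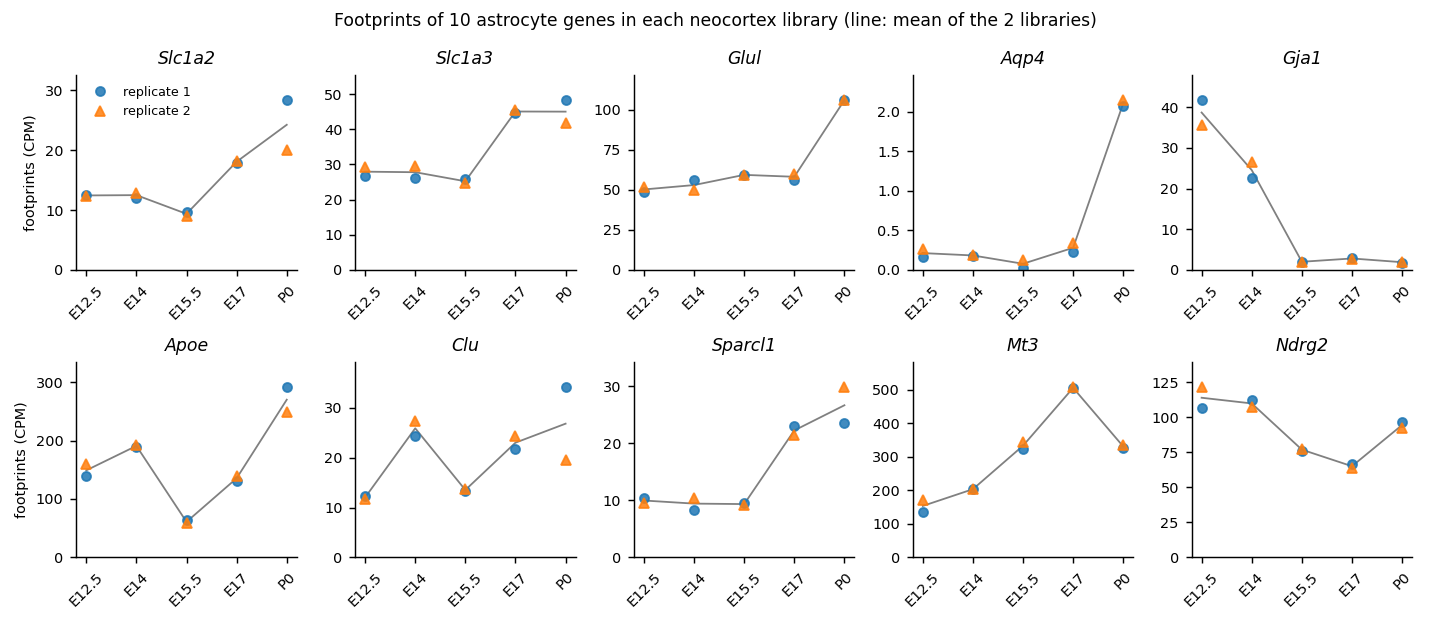
Footprints (CPM, linear axes from 0) of the 10 astrocyte genes at the 5 stages, with 1 point for each library and a line through the mean of the 2 libraries. Gja1 drops between E14 and E15.5, Aqp4 is near 0 until P0, Apoe dips at E15.5, and Mt3 peaks at E17.

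The genes for glutamate uptake and recycling come first. Slc1a2 (ENSMUSG00000005089) encodes GLT-1, the main glutamate transporter of the mature forebrain. Its level was 12.49 and 12.42 CPM in the E12.5 libraries, 12.1 and 12.9 at E14, then 9.67 and 9.08 at E15.5, 17.9 and 18.3 at E17, and 28.4 and 20.1 at P0. The E15.5 libraries were the lowest and those of E17 and P0 the highest, without overlap between E17 and P0, while E12.5 and E14 overlapped. The step from E15.5 to E17 was a rise of 0.94 on the log2 scale (SE 0.16, limma-voom adjusted p = 0.0145). The difference of -0.41 between E15.5 and E14 was not called (limma-voom adjusted p = 0.0766), nor was the difference of 0.36 between P0 and E17 (limma-voom adjusted p = 0.127).

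Slc1a3 (ENSMUSG00000005360) encodes GLAST, the glutamate transporter that radial glia already carry. It measured 26.7 and 29.1 CPM at E12.5, then 26.0 and 29.5 at E14, then 25.8 and 24.6 at E15.5, 44.7 and 45.3 at E17, and 48.3 and 41.7 at P0. The libraries formed a low set up to E15.5 and a high set from E17 on, and the E17 values lay between those of P0. Its only called step was the rise from E15.5 to E17 of 0.84 (SE 0.11, limma-voom adjusted p = 0.00866). Of all pairs of the 10 genes, Slc1a2 and Slc1a3 had the most similar course, with a root mean square difference of 0.19 between their log2 levels, each centred on its own mean over the 10 libraries.

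Glul (ENSMUSG00000026473) encodes glutamine synthetase, which converts the glutamate taken up into glutamine. Its level stayed between 48.7 and 60.0 CPM in all 8 embryonic libraries and was 106.2 and 106.0 CPM at P0. The P0 libraries stood apart from every earlier one. The step from E17 to P0 was 0.87 (SE 0.094, limma-voom adjusted p = 0.00163), a 1.82-fold rise, and no earlier step was called.

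The channels of the astrocyte membrane moved in opposite directions over this period. Aqp4 (ENSMUSG00000024411) encodes aquaporin-4, the water channel of astrocyte endfeet and of the ependyma. Its counts were low before birth, with 3 and 7 footprints at E12.5, then 4 and 6 at E14, then 1 and 3 at E15.5, and then 7 and 9 at E17. At P0 they were 19 and 90, or 2.07 and 2.15 CPM, against 0.030 to 0.34 CPM in the embryo. Both P0 libraries were above every embryonic library, although replicate 1 was much shallower. Aqp4 passed the filter only at P0, with 109 footprints in its 2 libraries against 4 to 16 in each embryonic stage, so it could enter the tests only by being high there. The fitted difference of 2.91 on the log2 scale between P0 and E17 is therefore given as a description. Differences among the embryonic stages rest on fewer than 10 footprints a library and were not called.

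Gja1 (ENSMUSG00000050953) encodes connexin 43, the gap junction protein of astrocytes, radial glia, meningeal cells and other tissues. It had 41.7 and 35.6 CPM at E12.5, then 22.7 and 26.4 at E14, then 2.08 and 1.94 at E15.5, 2.98 and 2.67 at E17, and 1.74 and 2.08 at P0. The 4 early libraries lay far above the 6 later ones, without overlap. The step from E14 to E15.5 was a fall of 12.05-fold (log2 fold change of -3.59 with SE 0.16, limma-voom adjusted p = 2.67e-05), and neither later step was called. Gja1 was the one gene of the 10 with its lowest mean at P0.

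The secreted and lipid-binding proteins follow. Apoe (ENSMUSG00000002985) encodes apolipoprotein E, the main lipid carrier of the brain. It measured 138.6 and 159 CPM at E12.5, then 189 and 192 at E14, then 63.3 and 58.0 at E15.5, 131 and 139 at E17, and 291 and 249 at P0. The E15.5 libraries were the lowest and the P0 libraries the highest, and E17 overlapped E12.5. Apoe fell 3.15-fold from E14 to E15.5 (log2 fold change of -1.65 with SE 0.12, limma-voom adjusted p = 7.63e-05). It then rose 2.23-fold to E17 (limma-voom adjusted p = 0.00657) and 1.99-fold from E17 to P0 (limma-voom adjusted p = 0.00194).

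Clu (ENSMUSG00000022037) encodes clusterin, a secreted chaperone that also travels on lipoprotein particles. Its values were 12.4 and 11.7 CPM at E12.5, then 24.4 and 27.4 at E14, then 13.3 and 13.7 at E15.5, 21.7 and 24.4 at E17, and 34.2 and 19.5 at P0. The P0 libraries spanned those of E14 and E17, the widest ratio between P0 replicates among the 10 genes. The difference of 1.11 between E14 and E12.5 (SE 0.23) had an adjusted p of 0.0679 in limma-voom and of 0.00216 in DESeq2. The fall of 0.94 from E14 to E15.5 was called (limma-voom adjusted p = 0.0119), and the difference of 0.76 between E17 and E15.5 was not (limma-voom adjusted p = 0.0708).

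Sparcl1 (ENSMUSG00000029309) encodes hevin, a matrix protein that astrocytes release to promote synapse formation. It measured between 8.35 and 10.5 CPM in the 6 libraries up to E15.5, 23.1 and 21.4 CPM at E17, and 23.5 and 29.8 at P0. The first 3 stages overlapped, and both later stages were above them. The rise fell on the step from E15.5 to E17, 2.38-fold (log2 fold change of 1.25 with SE 0.15, limma-voom adjusted p = 0.00743).

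The remaining genes encode intracellular proteins. Mt3 (ENSMUSG00000031760) encodes metallothionein 3, the metallothionein enriched in brain, which binds zinc and copper. It measured 136 and 170 CPM at E12.5, then 203.3 and 202.7 at E14, then 323 and 343 at E15.5, then 504 and 507 at E17, and finally 326 and 334 at P0. Each embryonic stage lay above the one before without overlap, and the P0 libraries returned to the range of E15.5. The steps into E15.5 (0.71), into E17 (0.60) and into P0 (-0.61) were called, with SE of 0.11 each and limma-voom adjusted p of 0.00184, 0.0194 and 0.00883.

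Ndrg2 (ENSMUSG00000004558) encodes a cytoplasmic protein of the NDRG family that is abundant in astrocytes. It had 106 and 121 CPM at E12.5, then 112 and 107 at E14, then 76.1 and 77.4 at E15.5, 66.5 and 63.5 at E17, and 96.6 and 92.1 at P0. The lowest libraries were those of E17, and the P0 libraries lay between E15.5 and E14. Ndrg2 fell by 0.51 into E15.5 (SE 0.096, limma-voom adjusted p = 0.00409) and rose by 0.54 into P0 (SE 0.097, limma-voom adjusted p = 0.00819). Between P0 and E12.5 it differed by -0.27 (limma-voom adjusted p = 0.0369), under the fold threshold, and by 0.26 when libraries were scaled by total counts only.

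**Figure D2:**
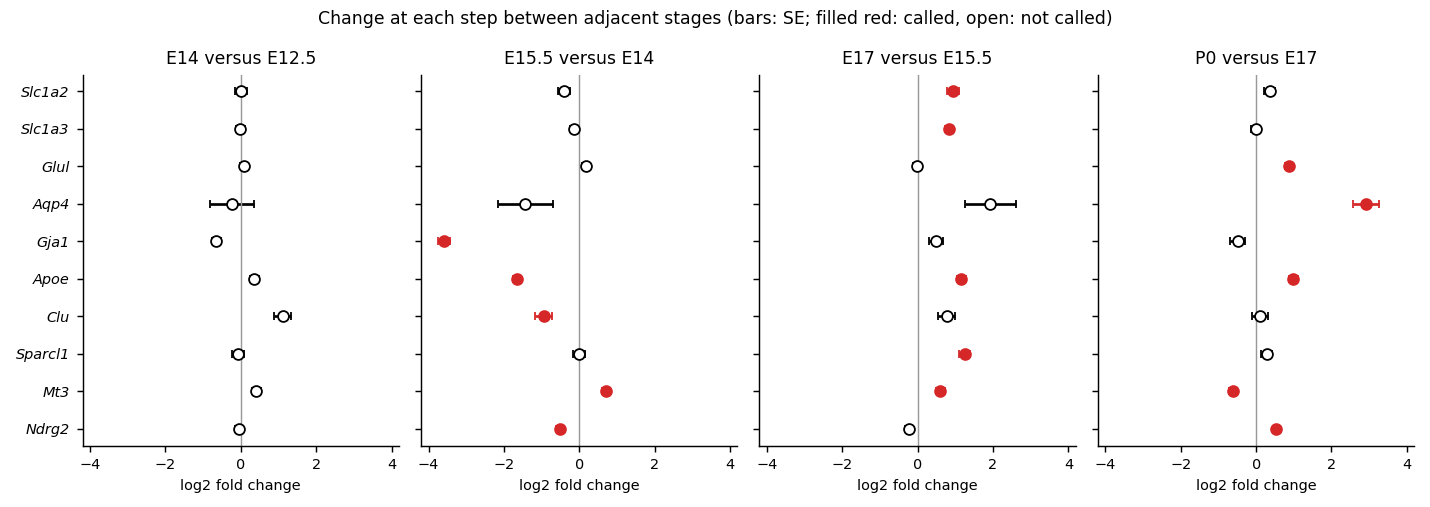
Fitted log2 fold changes of the 10 genes at the 4 steps between adjacent stages. Points are fitted values, bars are SE, and filled red points passed an adjusted p of 0.05 and a fold change of 1.25. At the step to E15.5 Mt3 rose while Apoe, Clu, Ndrg2 and Gja1 fell, and at the step to E17 all 5 called genes rose. Aqp4 passed the filter only at P0.

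At the first step, none of the 10 genes was called between E12.5 and E14 by limma-voom, where the background over all genes was 0.638%, or 0.497% higher and 0.141% lower. At an unadjusted p under 0.05 there were 4 (Apoe, Clu, Mt3 and Gja1). The edgeR quasi-likelihood test called 0 and DESeq2 called 3 (Clu, Mt3 and Gja1). Over all 13484 genes edgeR called 85 and DESeq2 called 388, against 86 by limma-voom, so the number depends on the method.

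Between E14 and E15.5, 1 gene rose (Mt3) and 4 fell (Apoe, Clu, Ndrg2 and Gja1), beside a background of 36.1%, or 16.5% higher and 19.6% lower. The median log2 fold change, leaving out Aqp4, was -0.41, and that of all genes was -0.0086. When libraries were scaled by total counts only, the median of all genes moved to 0.29, Clu and Ndrg2 were not called, and Glul was called higher. The call for Clu was also lost without E14 replicate 2 or either E15.5 library (adjusted p = 0.0610 to 0.0755, limma-voom).

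Between E15.5 and E17, 5 genes rose (Slc1a2, Slc1a3, Apoe, Sparcl1 and Mt3) and none fell, beside a background of 9.04%, or 5.61% higher and 3.43% lower. The median log2 fold change, leaving out Aqp4, was 0.76. These calls rest on all 4 libraries of the step. Without any one of them a stage is left with 1 library, and calls were lost over all genes and not only among these 10. The fitted rises of the 5 genes stayed between 0.56 and 1.31 in those fits.

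Between E17 and P0, 4 genes rose (Apoe, Glul, Ndrg2 and Aqp4) and Mt3 fell, beside a background of 20.5%, with 9.46% higher and 11.1% lower. Leaving out Aqp4, 3 rose, and the median log2 fold change was 0.28, against -0.023 for all genes. Without either E17 library, or with sample quality weights, Mt3 and Ndrg2 were not called and 3 calls were left. In a fit of the 4 libraries of E17 and P0 alone limma-voom called 0 of the 10, with 5 at an unadjusted p under 0.05. That fit called 0 of all 12995 genes it tested, so the count says nothing particular to these 10.

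Against E12.5, the E17 libraries had 5 genes higher (Slc1a2, Slc1a3, Clu, Sparcl1 and Mt3) and 2 lower (Ndrg2 and Gja1), beside a background of 54.7%, or 26.9% higher and 27.8% lower. Slc1a2 was not called there without any one of the 4 libraries (limma-voom adjusted p = 0.0665 to 0.0827), nor Clu without E12.5 replicate 2 or E17 replicate 2. This comparison shares its E12.5 libraries with that of P0 against E12.5. At P0 the genes that rose were Aqp4 (3.16), Sparcl1 (1.44), Mt3 (1.12), Glul (1.08), Clu (1.04), Slc1a2 (0.90), Apoe (0.85) and Slc1a3 (0.67), each a log2 fold change. The 9 calls at P0 were made by limma-voom, edgeR and DESeq2. One of them is Aqp4, which could enter the tests only by being high at P0, so its call is a description. Leaving out Aqp4, 7 of 9 genes rose and 1 fell. Without P0 replicate 2, Aqp4 no longer passed the filter.

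The sum of the 10 genes was 534 and 601 CPM at E12.5, then 654 and 660 at E14, then 582 and 596 at E15.5, 868 and 882 at E17, and 958 and 897 at P0. The sums of E12.5 and E15.5 overlapped, those of E14 lay above them, and those of E17 and P0 lay above all earlier ones. Mt3 and Apoe together made up 51.5% to 73.3% of these footprints, so the sum follows mainly those 2 genes.

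Markers of other cells moved at the same step as Gja1, Apoe and Clu. From E14 to E15.5, where 19.6% of all genes were lower and 16.5% higher, 8 of 8 tested choroid plexus markers fell, as did 10 of 10 markers of meningeal fibroblasts, 10 of 10 of endothelium, 6 of 9 of microglia and 2 of 7 of mural cells, while 8 of 8 neuronal markers rose. Some of these markers passed the filter only through stages where they are high. Among those called lower at P0 than at E12.5, 3 of 5 choroid plexus markers were under it at P0. So were 7 of 9 of meningeal fibroblasts and 6 of 10 of endothelium, but 0 of 2 of microglia and 0 of 4 of mural cells. How many markers were under the filter at E15.5 was not counted. The falls of these lists from E14 to E15.5 are therefore given as a description. Choroid plexus markers summed to 1158 and 1164 CPM at E14 and to 14.04 and 11.6 at E15.5. At E15.5, 3 of the 10 listed were at 0 in each library. Ttr, transthyretin, the defining choroid plexus gene, averaged 1081 CPM at E14 and 11.2 CPM at E15.5. Meningeal fibroblast markers summed to 81.0 and 86.4 CPM at E14 and to 5.06 and 4.64 at E15.5, and endothelial markers to 66.8 and 76.4 and then to 20.3 and 17.7. Microglial markers summed to 32.6 and 34.3 CPM and then to 26.6 and 20.3. Mural markers summed to 143 and 137 CPM at E14 and to 161 and 157.5 at E15.5. With total counts only, or without E14 replicate 2 or either E15.5 library, 2 microglial markers were called in place of 6. The part of these cells in the falls of Gja1, Apoe, Clu and Ndrg2 was not tested.

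Markers of other cells were also followed at the later steps. From E15.5 to E17 the sum of the meningeal fibroblast markers went from 5.06 and 4.64 CPM to 11.7 and 15.1, that of endothelium from 20.3 and 17.7 to 30.7 and 33.1, and that of microglia from 26.6 and 20.3 to 35.6 and 30.7. The E17 sums of all 3 lists were above those of E15.5, and 1 of 10, 2 of 10 and 1 of 9 tested markers were called higher, with none lower. Over all genes 5.61% were called higher at this step and 3.43% lower, so 1 call in a list is close to that share. Their median log2 fold changes were 0.89, 0.89 and 0.50. Choroid plexus markers stayed at 6.22 to 15.4 CPM in the E17 and P0 libraries, with 0 of 8 tested higher at either step. Markers of the oligodendrocyte lineage, the other glia that follow neurons, summed to 37.6 and 43.6 CPM at E15.5, to 65.4 and 80.6 at E17, and to 149 and 119 at P0. Of the 10 listed, 6 were tested and 1 was at 0 in each E17 library. At the step to E17, 3 of the 6 rose, beside 5.61% of all genes, and at the step to P0 3 rose, beside 9.46%. Of the 5 called higher at P0 than at E12.5, 2 were under the filter at E12.5, so the rises of such markers are given as a description. As over all genes, the calls at the step to E17 were lost without any one of its 4 libraries. Those at the step to P0 were lost in a fit of E17 and P0 alone, which called no gene at all. Olig1, a transcription factor of that lineage, averaged 2.98 CPM at E15.5 and 36.1 CPM at P0. The part of these cells in the rises of Slc1a2, Slc1a3, Apoe, Sparcl1 and Mt3 at E17, and of Apoe, Glul and Ndrg2 at P0, was not tested.

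**Figure D3:**
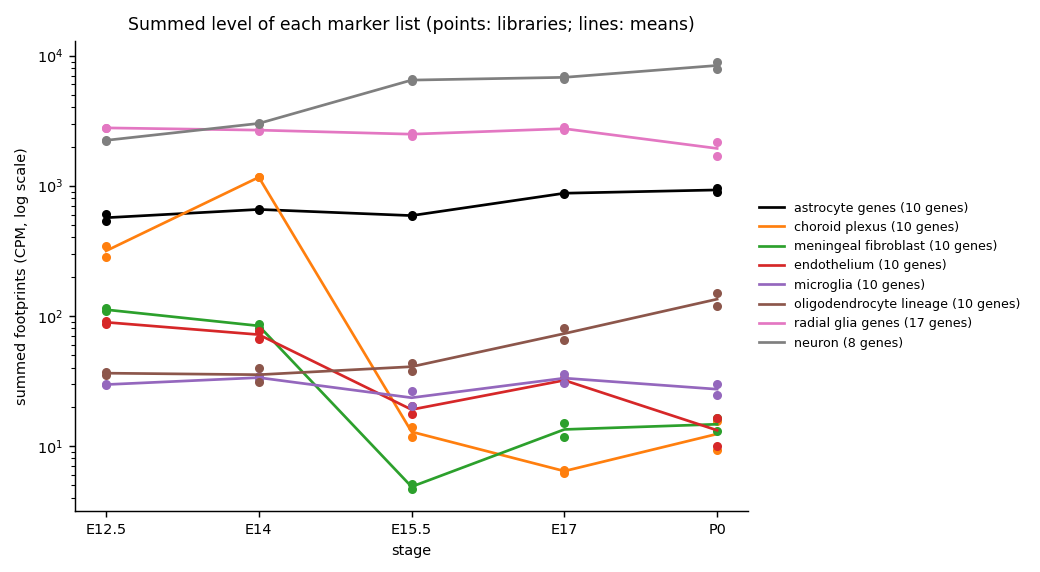
Summed footprints (CPM, log axis) of the 10 astrocyte genes and of marker lists for other cells in each library, with points for libraries and lines for stage means. The choroid plexus list falls from 1158 and 1164 CPM at E14 to 14.04 and 11.6 at E15.5, while the astrocyte list runs from 534 CPM to 958 CPM.

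Relatives of the 10 genes were followed to see how far each course was shared by its family. Mt1 and Mt2, the metal-inducible metallothioneins found in many tissues, are neighbours of Mt3 on chromosome 8. Mt1 measured 234 and 227 CPM at E14 and 72.0 and 65.8 at E15.5, and Mt2 measured 363 and 312 and then 119 and 113, so that both fell without overlap while Mt3 rose. The fitted steps were -1.74 for Mt1 (SE 0.17, adjusted p = 0.000221), -1.53 for Mt2 (SE 0.13, adjusted p = 0.000131) and 0.71 for Mt3, all by limma-voom. From E17 to P0 the directions were again opposite, with rises of 1.10 for Mt1 and 0.51 for Mt2, both called, and a fall of 0.61 for Mt3.

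The promoters of the 3 metallothionein genes are shown because their footprints moved in opposite directions at these steps. Each runs from 250 bases before to 50 bases after the start, as RefSeq gives it on the plus strand of GRCm38.p6. Mt3 is at chr8:94152357-94152656, Mt1 at chr8:94178839-94179138 and Mt2 at chr8:94172368-94172667. Capitals mark the core of the metal response element, TGCACNC or TGCGCNC, searched on both strands.
Mt3: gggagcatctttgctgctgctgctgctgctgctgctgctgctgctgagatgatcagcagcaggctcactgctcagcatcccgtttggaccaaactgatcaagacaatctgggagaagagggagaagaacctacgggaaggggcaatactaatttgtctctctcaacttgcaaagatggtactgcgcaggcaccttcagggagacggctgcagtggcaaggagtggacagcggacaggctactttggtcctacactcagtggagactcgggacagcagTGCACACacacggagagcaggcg
Mt1: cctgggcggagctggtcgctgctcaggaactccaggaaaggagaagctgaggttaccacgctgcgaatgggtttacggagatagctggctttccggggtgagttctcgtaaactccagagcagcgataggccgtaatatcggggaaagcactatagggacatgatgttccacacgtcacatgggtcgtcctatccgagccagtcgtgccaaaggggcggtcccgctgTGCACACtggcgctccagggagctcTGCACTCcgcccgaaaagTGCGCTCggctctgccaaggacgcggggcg
Mt2: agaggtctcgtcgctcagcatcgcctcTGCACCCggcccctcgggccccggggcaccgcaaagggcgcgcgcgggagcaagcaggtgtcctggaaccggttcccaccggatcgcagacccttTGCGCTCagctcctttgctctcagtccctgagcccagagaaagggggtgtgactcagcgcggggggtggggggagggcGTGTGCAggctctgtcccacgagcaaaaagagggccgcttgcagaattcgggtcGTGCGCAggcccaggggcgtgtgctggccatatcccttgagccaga
The core matched at 1 place in Mt3, 3 places in Mt1 and 4 places in Mt2. Of 32851 promoters of the same length, 25.7% held at least 1 match and 7.11% held 2 or more. Among the 10 astrocyte genes, 7 had a promoter entry (not Clu, Sparcl1 or Aqp4), and Mt3 and Glul held this core. Further motifs were searched on both strands in the same windows. TTGGCA, letters that NFI factors recognise, was found in 1 of the 7 (Apoe) and in 14.1% of all promoters, the STAT element TTCNNNGAA in 1 (Slc1a3) and in 8.3%, and TATAAA in 3 (Slc1a3, Apoe and Ndrg2) and in 13.6%. None of the motifs contains another. A gene with several promoter entries was counted when any of them matched. A match describes letters in the window and not a bound site.

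Of 22 relatives listed, 19 were tested, and at P0 6 were higher and 8 lower than at E12.5, beside 30.1% and 32% of all genes. Of the 8 lower, 5 were under the filter at P0, and of the 6 higher, 2 were under it at E12.5. In the NDRG family, Ndrg1, Ndrg3 and Ndrg4 rose by 2.86, 1.83 and 3.46 on the log2 scale (limma-voom adjusted p = 3.74e-06, 2.26e-06 and 3.74e-07), whereas Ndrg2 differed by -0.27. Ndrg4, the neuronal member, had 28.2 and 28.8 CPM at E12.5 and 322 and 306 at P0, so its libraries stood far apart where those of Ndrg2 were separated only narrowly.

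Sparc, which encodes the matrix protein osteonectin and is the closest relative of Sparcl1, took the opposite course. It had 266 and 250 CPM at E12.5, then 185 and 213 at E14, then 45.8 and 47.9 at E15.5, 102 and 96.7 at E17, and 80.3 and 48.8 at P0. Its early libraries were the highest, and the difference between P0 and E12.5 was -2.08 (SE 0.20, limma-voom adjusted p = 4.15e-05), against 1.44 for Sparcl1. At the step to E17 both were called higher, Sparc by 1.09 and Sparcl1 by 1.25.

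Among relatives of the glutamate transporters, Slc1a1, the neuronal transporter EAAC1, rose by 1.75 from E12.5 to P0 (SE 0.19, limma-voom adjusted p = 8.97e-05), from 2.04 and 2.47 CPM to 9.46 and 6.92. Slc1a5, a neutral amino acid transporter that carries glutamine, had 48 and 76 footprints at E12.5, or 2.64 and 2.84 CPM, and 3 and 8 at P0, or 0.33 and 0.19 CPM, which is under the filter, so no test is given. Slc1a4, a transporter of alanine and serine, differed by 0.48 (limma-voom adjusted p = 0.0875). Its P0 libraries, 31.98 and 18.6 CPM, were both above those of E12.5, 15.6 and 17.7, but lay far from each other.

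Other connexins also changed. Gjc1, connexin 45, went from 39.5 and 37.8 CPM at E12.5 to 15.3 and 12.7 at P0, a log2 change of -1.498 (SE 0.15, limma-voom adjusted p = 4.49e-05), against -4.25 for Gja1. Gjb6, the astrocyte connexin 30, had 14 and 30 footprints at E12.5, or 0.77 and 1.12 CPM, and 2 and 1 at P0, or 0.22 and 0.024 CPM. Gjd2, the neuronal connexin 36, had 4 and 5 footprints at E12.5, or 0.22 and 0.19 CPM, and 11 and 52 at P0, or 1.20 and 1.24 CPM. Aqp1, the water channel of the choroid plexus, had 65 and 94 footprints at E14 and 3 and 0 at E15.5, where Aqp4 had 1 and 3. These genes passed the filter only through the stages where they are high, so their counts are given without a test.

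**Figure D4:**
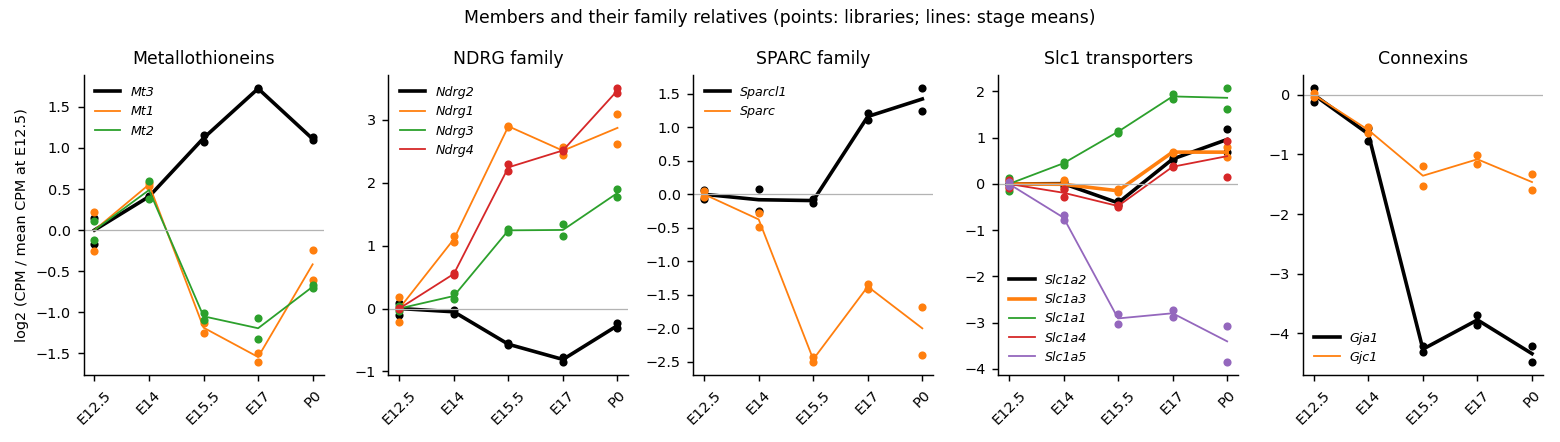
Log2 of CPM over the mean CPM at E12.5 for members (black) and relatives in 5 families, with points for libraries and lines through stage means. Mt3 rises where Mt1 and Mt2 fall at E15.5, Ndrg1, Ndrg3 and Ndrg4 rise while Ndrg2 does not, and Sparcl1 and Sparc part.

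A longer list of 35 other astrocyte genes was examined, of which 30 were tested. From E12.5 to P0, 14 rose, 9 fell and 7 were not called, beside 30.1% higher and 32% lower among all genes. Of the 14 that rose, 5 were under the filter at E12.5. At the step from E14 to E15.5, 5 rose and 11 fell, beside 16.5% and 19.6% of all genes. Aldh1l1, the folate enzyme used as a pan-astrocyte marker, went from 0.84 CPM ± 0.45 (SD, n = 2) at E12.5 to 1.02 ± 0.055 at E14, 12.3 ± 0.82 at E15.5 and 30.5 ± 1.45 at P0. Its rise over the course was 5.36 (SE 0.31, limma-voom adjusted p = 2.91e-06). Acsbg1, an acyl-CoA synthetase, rose from 1.79 CPM ± 0.27 to 7.99 ± 0.072. The largest called falls among well covered genes of this list were those of Gpc4, a glypican, from 44.0 CPM ± 1.14 to 2.92 ± 0.18, and of Fgfr3, a growth factor receptor of radial glia and astrocytes, from 76.8 ± 9.93 to 8.06 ± 2.59. Gfap, the intermediate filament of astrocytes, had too few footprints on average for the naming rule and was picked after its values were seen. It had 6 footprints in all at E12.5 and 610 at P0, or 0.13 CPM ± 0.028 and 11.4 ± 1.29, and it passed the filter only at E17 and P0.

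**Figure D5:**
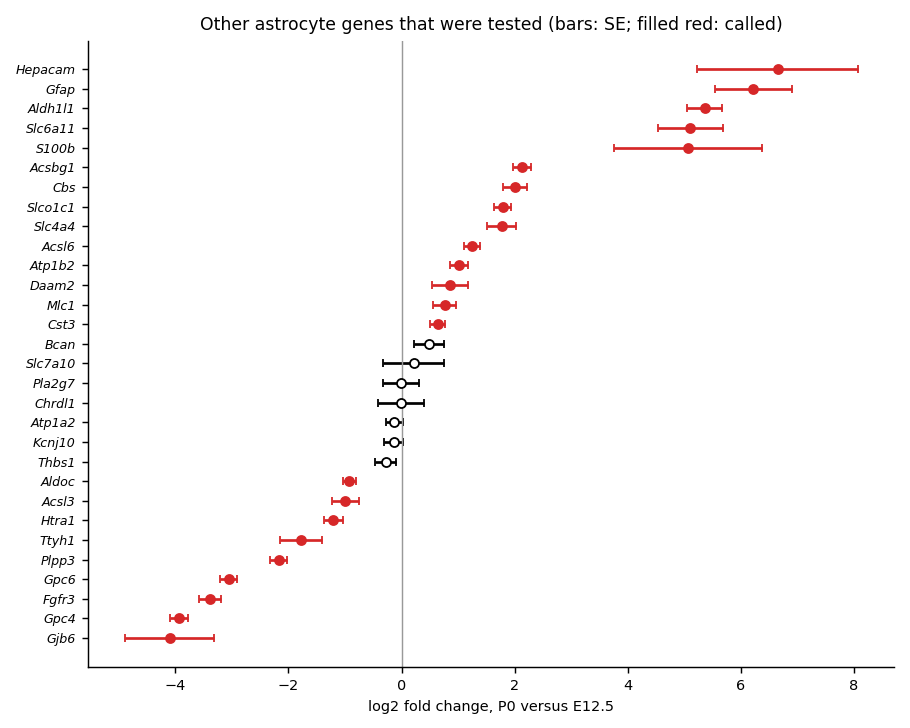
Fitted log2 fold changes of the 30 tested genes of the longer astrocyte list, P0 against E12.5, with bars for SE and filled red points for called genes. Of the 30, 16 lie above 0, 14 of them called and led by genes with few footprints at E12.5 such as Gfap, and 14 lie below 0, 9 of them called, among them Gpc4 and Fgfr3.

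Genes that handle glutamate and glutamine, 18 of 18 tested, had 10 higher and 5 lower at P0 than at E12.5, beside 30.1% and 32% of all genes. Of the 10 higher, 2 were under the filter at E12.5, among them Grm3 with 12 footprints in all. Of the 5 lower, 1 was under it at P0. Grm3, a metabotropic glutamate receptor of astrocytes and neurons, rose from 0.27 CPM ± 0.0094 to 9.64 ± 0.24, and Gad1, the GABA-synthesising enzyme of interneurons, rose from 1.93 ± 0.39 to 52.6 ± 2.07. The glutamine transporters Slc38a2 and Slc38a1 fell, from 52.1 CPM ± 2.74 to 20.2 ± 0.17 and from 86.9 ± 0.62 to 38.7 ± 6.75. The increases in Slc1a2, Slc1a3 and Glul stood beside members of this pathway that moved both ways, including neuronal ones.

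Of the apolipoprotein E lipid pathway, 18 of 20 genes were tested, and 4 were higher and 7 lower at P0 than at E12.5, together a share near the 62.1% of all genes called. Dab1, the adaptor of the receptors shared by reelin and apolipoprotein E, rose by 1.47 (SE 0.11), and the receptor Vldlr by 1.17 (SE 0.13). The receptor Lrp8 fell by 0.56 (SE 0.11) and the lipocalin Apod by 2.98 (SE 0.30). All 4 were called by limma-voom, with adjusted p of 1.05e-05, 0.000113, 0.00281 and 5.50e-05. Apod fell mainly from E14, 24.2 CPM ± 3.85, to E15.5, 4.81 ± 1.26, the step at which Apoe fell, and unlike Apoe it was no higher at P0, 3.67 ± 0.19. With sample quality weights, or in a fit of the 2 stages alone, 8 genes of this list were called in place of 11.

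Regulators of astrocyte formation were all tested, 28 of 28, with 8 higher and 17 lower at P0 than at E12.5, beside 30.1% and 32% of all genes. Id2, an inhibitor of basic helix-loop-helix factors, rose from 93.9 CPM ± 4.25 to 462 ± 70.8, and Zbtb20, a zinc finger factor, from 8.58 ± 0.24 to 29.4 ± 3.58. Id4, a relative of Id2, fell from 232 CPM ± 32.2 to 24.7 ± 9.59, and Cntfr, the receptor of ciliary neurotrophic factor, from 26.2 ± 1.71 to 4.204 ± 0.21. Id2 and Id4 thus moved in opposite directions, by 2.29 and by -3.35 on the log2 scale.

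Genes of radial glia, the cells from which astrocytes arise, were all tested, 17 of 17, with 3 higher and 13 lower at P0 than at E12.5, against 30.1% and 32% over all genes. Prom1, which encodes prominin-1, fell by 4.64 (SE 0.19, limma-voom adjusted p = 7.09e-07), and Vim, the filament protein vimentin, by 2.91 (SE 0.11, limma-voom adjusted p = 5.25e-07). Tnc, the matrix protein tenascin C, rose by 2.95 and Fabp7, a fatty acid binding protein of radial glia and astrocytes, by 0.59 (limma-voom adjusted p = 3.02e-05 and 0.0163). The radial glia list averaged 2782 CPM in sum at E12.5, 2743 at E17 and 1934 at P0, and Fabp7 made up 969, 2054 and 1486 CPM of it. Without Fabp7 the sum at E12.5 was 1812 CPM, followed by 1617 (E14), 860.5 (E15.5) and 689 (E17), and it ended with 448 CPM in the P0 libraries.

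The genes whose footprints followed each member most closely were found among 9215 genes by the smallest root mean square difference of centred log2 levels over the 10 libraries. Slc1a2 was closest to Cst3 (0.12), a gene of the longer astrocyte list, and Slc1a3 to Pcdhga10 (0.10). Apoe was closest to Pdgfra (0.27), a marker in the list of the oligodendrocyte lineage, followed by Id3 (0.32), in that of regulators of astrocyte formation. Clu was closest to Vat1l (0.26), followed by Slc17a7 (0.28), in the list of glutamate handling. Glul was closest to Gnl3l (0.087) and Ndrg2 to Asl (0.041). Sparcl1 was closest to Pcdh10 (0.22) and Mt3 to Svop (0.087). The nearest gene to Gja1 was Col18a1 (0.37), a collagen, followed by Dcn (0.40), a proteoglycan in the list of meningeal fibroblast markers. Aqp4 had no close match, its nearest gene being Sgk1 at 0.81, and its own counts under 10 in the embryo add to that distance. For the other members the next nearest genes were Gm2a for Slc1a2, Elovl4 for Slc1a3, Taok2 for Glul and Akr1b3 for Ndrg2. They were Spp1 for Sparcl1, Rtn1 for Mt3 and Cobl for Aqp4. All these distances describe 10 libraries in 5 stages and carry no test.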

How the data were processed

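Footprints were sequenced in 10 neocortex libraries. The authors deposited whole-number footprint counts per gene, not scaled. The study's methods state adapter trimming, removal of duplicate reads, removal of tRNA, rRNA and snoRNA reads with Bowtie 2, and alignment of the rest with STAR to the genome and coding transcripts of GENCODE release M12, keeping reads that match several places. DeepShape-prime is named there for isoform abundances, and tximport for summing them to genes with a length correction. Whether these whole numbers are the output of that step is not given in the sources used here, so genes with near-identical copies are uncertain. For no astrocyte gene did another gene have counts within 5% in every library.

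Of 22373 identifiers, 22274 matched a symbol. Genes with 32 footprints in a stage were kept (13484). Stages were compared in R 4.3.3 by limma-voom (limma 3.58.1) with TMM factors (edgeR 4.0.16), 1 coefficient per stage over all 10 libraries, two-sided, with Benjamini-Hochberg adjustment over all 13484 genes. Calls needed an adjusted p under 0.05 and a change of 1.25-fold or more. CPM uses TMM-scaled library sizes. Alternatives were another scaling, no filter, edgeR, DESeq2 1.42.0, sample quality weights, the compared stages alone, a replicate block and each library left out. The p-values measure the spread between pools. The code was tested on simulated counts.

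The members and the gene lists were chosen with earlier results of these data known. All members and their relatives may be named. From each other list, the rule names the 2 largest called rises and the 2 largest called falls at P0 against E12.5 among those averaging 100 counts or more, and for each member its nearest genes. Ttr, Olig1, Gfap and Dcn were otherwise named as markers. Promoters come from RefSeq and cover 7 of the 10 members, and motifs were counted with Python 3.11.15. No coordinates or sequences of the authors' own were used.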

Additional observations from a re-analysis of the deposited data

How the results depend on the processing

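Over 60 fold changes of the astrocyte genes and 1070 alternative values, 970 kept their direction and call, 42 lost the call, 31 gained one and 27 changed sign, and none of those 27 had been called. The number of the 10 genes called depended on the setting as follows, and the number called over all genes moved as well. With sample quality weights, 655 of 13484 genes were called in place of 86 from E12.5 to E14. That setting called 3717 in place of 1219 from E15.5 to E17, and 698 in place of 2767 from E17 to P0. DESeq2 called 388 from E12.5 to E14, and the fit of E17 and P0 alone called 0 of 12995. Between E12.5 and E14 it was 3 with DESeq2 and 2 with sample quality weights in place of 0, and 0 to 4 when a library was left out. From E14 to E15.5 it was 4 to 6 in place of 5 when a library was left out, and from E15.5 to E17 it was 8 with sample quality weights in place of 5, and 0 to 6. From E17 to P0 it was 0 in the fit of the compared stages alone and 3 with sample quality weights in place of 5, and 3 to 6. Against E12.5 it was 5 to 7 in place of 7 at E17 and 8 to 10 in place of 9 at P0.

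Many of the signs changed near 0, but not all. Ndrg2 at P0 against E12.5 went from -0.27 to 0.26 with total counts only. Both were under the fold threshold (limma-voom adjusted p = 0.0369 and 0.0343). With total counts only, the log2 fold change was 0.0058 for Ndrg2 and 0.049 for Slc1a3 (E12.5 to E14), 0.16 for Slc1a3 and 0.28 for Sparcl1 (E14 to E15.5), 0.031 for Glul (E15.5 to E17), 0.096 for Slc1a3 (E17 to P0), 0.28 for Apoe (E17 against E12.5) and 0.26 for Ndrg2 (P0 against E12.5). With DESeq2 size factors and with DESeq2 it was -0.0027 and -0.0030 for Slc1a2 (E12.5 to E14) and 0.019 and 0.027 for Slc1a3 (E17 to P0), which was 0.019 with quality weights. Without the filter it was 0.00011 for Sparcl1 (E14 to E15.5). With 1 library left out, the ranges from E12.5 to E14 were -0.47 to 0.076 for Aqp4, -0.0044 to 0.16 for Glul, -0.14 to 0.045 for Ndrg2, -0.038 to 0.052 for Slc1a2, -0.10 to 0.081 for Slc1a3 and -0.24 to 0.078 for Sparcl1. They were -0.17 to 0.15 for Sparcl1 (E14 to E15.5), -0.072 to 0.015 for Glul (E15.5 to E17), -0.011 to 0.57 for Aqp4 (E17 against E12.5), and -0.23 to 0.60 for Clu and -0.11 to 0.13 for Slc1a3 (E17 to P0). The cause was not tested, except that total counts shift all genes alike, by 0.29 in the median from E14 to E15.5, 0.40 at E17 and 0.51 at P0 against E12.5. Relative to that median Ndrg2 was at -0.26 under both scalings. The share of higher genes among all called moved from 45.6% to 72.7% from E14 to E15.5, from 62.1% to 71.0% to E17, from 46.1% to 63.4% to P0, from 77.9% to 90.9% from E12.5 to E14, and from 49.2% to 73.3% and 48.5% to 72.0% at E17 and P0 against E12.5.

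Whether replicate numbers pair the libraries is not given in the sample titles. The correlation of replicate deviations between stages ran from -0.64 to -0.11 for pairs with E12.5. Among the other stages it ran from -0.044 to 0.43. These values do not settle whether the numbers pair. With the replicate number as a block, the counts of astrocyte genes called were 0, 5, 5 and 5 at the 4 steps and 7 and 9 against E12.5, as without it. Over all genes the block gave 4 calls in place of 86 from E12.5 to E14. The low depth of P0 replicate 1 limits the P0 values most for Aqp4, which had 19 footprints there.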
